A study of Homo sapiens with 12 samples.

Results

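The genes described here are 10 transcripts that other studies have reported as targets of ALKBH5, which demethylates N6-methyladenosine (m6A) in RNA. They were found in the peak lists by their gene numbers: FOXM1, FOXO1, SOX2, TFEB, PER1, TRIM28, PKMYT1, WIF1, NEAT1 and PVT1. Of the 10, 8 had at least 1 peak and 2, WIF1 and TRIM28, had none, out of 10536 genes with a peak in any list. The 8 genes carried 53 of the 81380 listed peaks.

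The study compared 143B cells, an established human osteosarcoma line, transfected for 48 h with siRNAs against ALKBH5 ("knockdown") or with a scrambled siRNA ("scrambled"). In this assay, MeRIP-seq, RNA fragments that an m6A antibody binds are recovered and sequenced, and the 6 pulldown libraries, 3 of knockdown and 3 of scrambled, each gave 1 list of peaks. The replicate number also marks the method. Replicates 1 and 3 used polyadenylated RNA with different antibodies, and replicate 2 used total RNA, the Magna MeRIP kit and yet another antibody, so knockdown is set here against scrambled of the same number. The labels name the antibody of replicate 1 for all 6 libraries, and the other antibodies rest on the protocol text. All cells of both groups are 1 line, and a transient siRNA lowers a gene rather than removing it. The labels do not say if the numbers are separate cultures, so any p-value rests on the spread of these samples alone. That spread includes the differences of method between the numbers, and the rest of it may be technical too. The 6 input libraries were not analysed here.

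m6A is placed on adenosines of messenger and long noncoding RNAs by a methyltransferase complex in the nucleus, read by YTH-domain and other binding proteins, and removed by the demethylases ALKBH5 and FTO. Depending on the reader, the mark is linked to faster decay, to stabilisation, to nuclear export or to translation of the transcript. ALKBH5 is mainly nuclear. FOXM1 was described as its target in glioblastoma stem cells, and PVT1 in osteosarcoma.

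A library "called" a gene if its list held at least 1 peak with the number of that gene. Values of a group are given in the order of replicates 1, 2 and 3 throughout. Covered length is the exon length of its peaks in nucleotides (nt). The score deposited with each peak behaves as a p-value and is used only as a percentile within its own list, where 100 is the best. Read counts are not part of the lists, so depth is unknown, and a missing peak can come from little RNA as well as from little m6A, which cannot be told apart here. The knockdown lists held 17563, 5917 and 18360 peaks and the scrambled lists 15139, 5677 and 18724. The exon length covered by the knockdown list was 1.57, 1.13 and 1.00 times that of the scrambled list in replicates 1, 2 and 3. Peak lengths came in steps of about 30 nt: between 78.1 and 95.3% of single-block peaks per list had a length within 1 nt of a multiple of 30. ALKBH5 itself had no peak in the 3 knockdown libraries, and in the scrambled libraries it had peaks of 210 nt in replicate 1 and 150 nt in replicate 3 and none in replicate 2. Of 9 markers of mesenchymal and bone cells, 4 carried a peak, with RUNX2, TWIST1 and SPP1 called in at least 5 libraries and COL1A1 in 3. SPP1 was called in 2 knockdown and 3 scrambled libraries, and the other 3 in as many or more knockdown libraries. Of 7 markers of epithelial and endothelial cells none did, and of 4 blood markers 1 did (CD14, in 3 libraries). VIM and COL1A2 had no peak, and peak calls are not RNA levels.

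In replicates 1, 2 and 3 the knockdown lists called 8, 4 and 8 of the 8 genes that had a peak. The scrambled lists called 7, 1 and 8 of them. Of all genes with a peak, the knockdown lists called 78.5, 32.0 and 86.6% and the scrambled lists 66.5, 31.4 and 88.2%, so most genes lacked a call in replicate 2. FOXM1 was the one gene of the 10 called in all 6 libraries. FOXO1, SOX2 and PER1 were called in all 3 knockdown and 2 scrambled libraries, as were 6.75% of genes, and lacked a call in scrambled replicate 2. TFEB was called in 2 knockdown libraries and 1 scrambled library, and PVT1, NEAT1 and PKMYT1 were called in the same 4 libraries, those of polyadenylated RNA. So 4 genes were called in more knockdown than scrambled libraries, 0 in fewer and 4 in equally many. Over all 10536 genes with a peak these shares were 26.1% in more, 17.1% in fewer and 56.8% in equally many, and 23.3% of genes were called in all 6. With 8 genes, 3 of the 4 differences come from 1 pair: without both libraries of replicate 2, 1 gene (TFEB) was called in more knockdown libraries. In replicate 2, genes called only in the knockdown made up 20.3% of all genes called in either library, and genes called only in the scrambled library 18.7%. Of the 1342 genes called in 5 libraries, 48.1% lacked a call in scrambled replicate 2, as these 3 did, and 46.9% lacked one in knockdown replicate 2. In replicate 1 TFEB alone of the 10 was called in the knockdown only and 0 in the scrambled library only, where all genes gave 20.3% and 5.99%, and in replicate 3 none differed, where all genes gave 6.65% and 8.29%. No gene of the 10 was called in all libraries of one siRNA and none of the other, a pattern shown by 0.114% of genes in favour of the knockdown and 0.0285% in favour of scrambled.

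**Figure D1:**
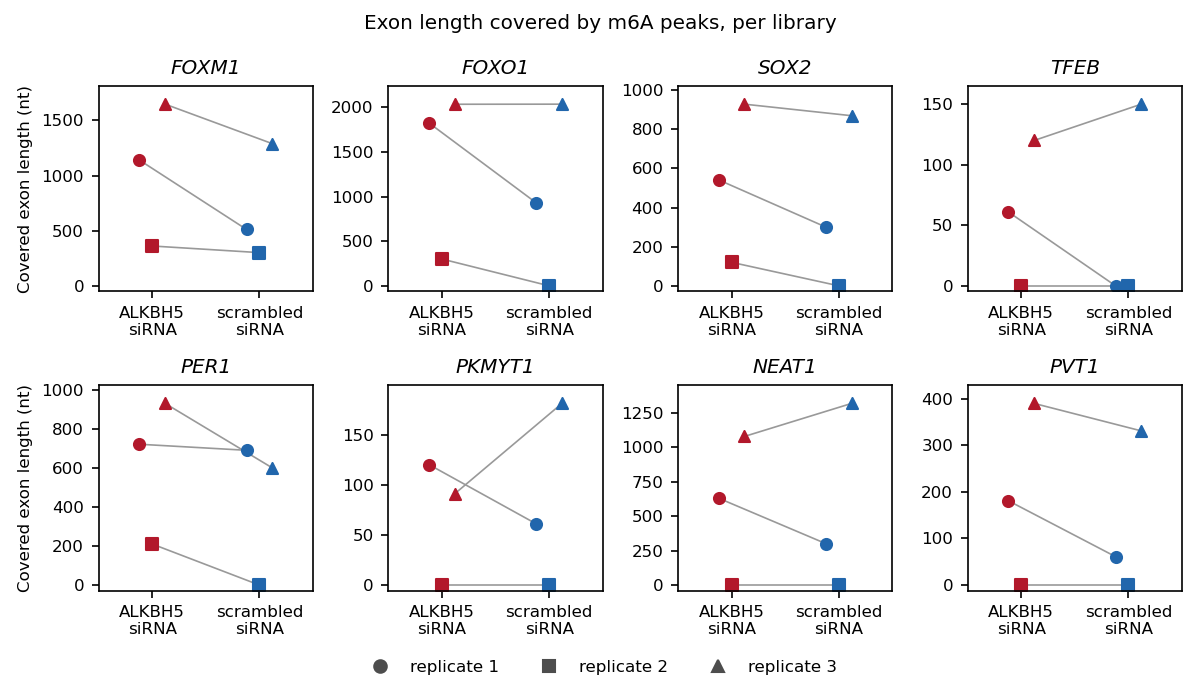
Exon length covered by m6A peaks (y axis, nt, from 0) for the 8 genes with a peak, in the ALKBH5 siRNA libraries (left, red) and the scrambled siRNA libraries (right, blue). Each point is 1 library, its shape the replicate number, and lines join libraries of the same number. FOXM1, SOX2 and PER1 are longer in the knockdown of every pair, while TFEB, NEAT1 and PKMYT1 cross between pairs.

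Among the transcription factors, FOXM1, which drives the genes of mitosis, carried 3, 2 and 2 peaks after knockdown and 2, 2 and 3 in the scrambled libraries. Its peaks covered 1140, 361 and 1647 nt in the knockdown libraries and 511, 301 and 1289 nt in the scrambled ones. The knockdown covered more in each of the 3 pairs, by 629, 60 and 358 nt, although the 2 groups overlap widely because replicate 2 is short in both. The means were 1049 ± 648 nt in the knockdown and 700.3 ± 521 nt in the scrambled libraries (SD, n = 3 each), a difference of 349.0 nt that lay inside the spread (two-sided exact permutation test, p = 0.6; 3 against 3 cannot go below 0.1). Taken as pairs, the differences gave an exact p of 0.25 in a sign-flip test, which with 3 pairs cannot go lower.

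FOXM1 had 2 regions of m6A, and both were called in all 6 libraries, against 12.7% of all 21675 regions. The upstream one spanned chromosome 12, 2981301 to 2983449 (hg19, minus strand), and its 420 nt of exon lay in 2 exon blocks with a gap between them in 3 of the libraries. The downstream one spanned 2967415 to 2968701 in a single block of 1287 nt. The bases common to all 6 libraries were 150 nt of the downstream region, 2967834 to 2967983, the same bases as the whole downstream peak of scrambled replicate 2. In the upstream region no base was shared by all 6, since scrambled replicate 1 covered 91 nt on one side of the gap and replicate 2 of both siRNAs lay on the other. Coding and untranslated positions were not separated, as no annotation of this genome build was used here.

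Within each pair the FOXM1 coverage of both siRNAs overlapped. In replicate 1 knockdown and scrambled shared 511 nt, 629 nt were private to the knockdown and 0 to the scrambled library. In replicate 2 the pair shared 211 nt, with 150 nt private to the knockdown and 90 nt to scrambled, and in replicate 3 it shared 1229 nt, with 418 and 60 nt. The ratio of covered length, knockdown over scrambled, was 2.23, 1.20 and 1.28, where the median gene called in both libraries had 1.47, 1.08 and 1.00. FOXM1 exceeded 78.8, 57.6 and 79.9% of those genes in replicates 1, 2 and 3. The best FOXM1 peak stood at the 79.8, 88.6 and 81.6th percentile of score after knockdown and at 82.7, 47.7 and 85.5 in the scrambled libraries. Scrambled replicate 2 was the one list in which it stood in the weaker part.

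**Figure D2:**
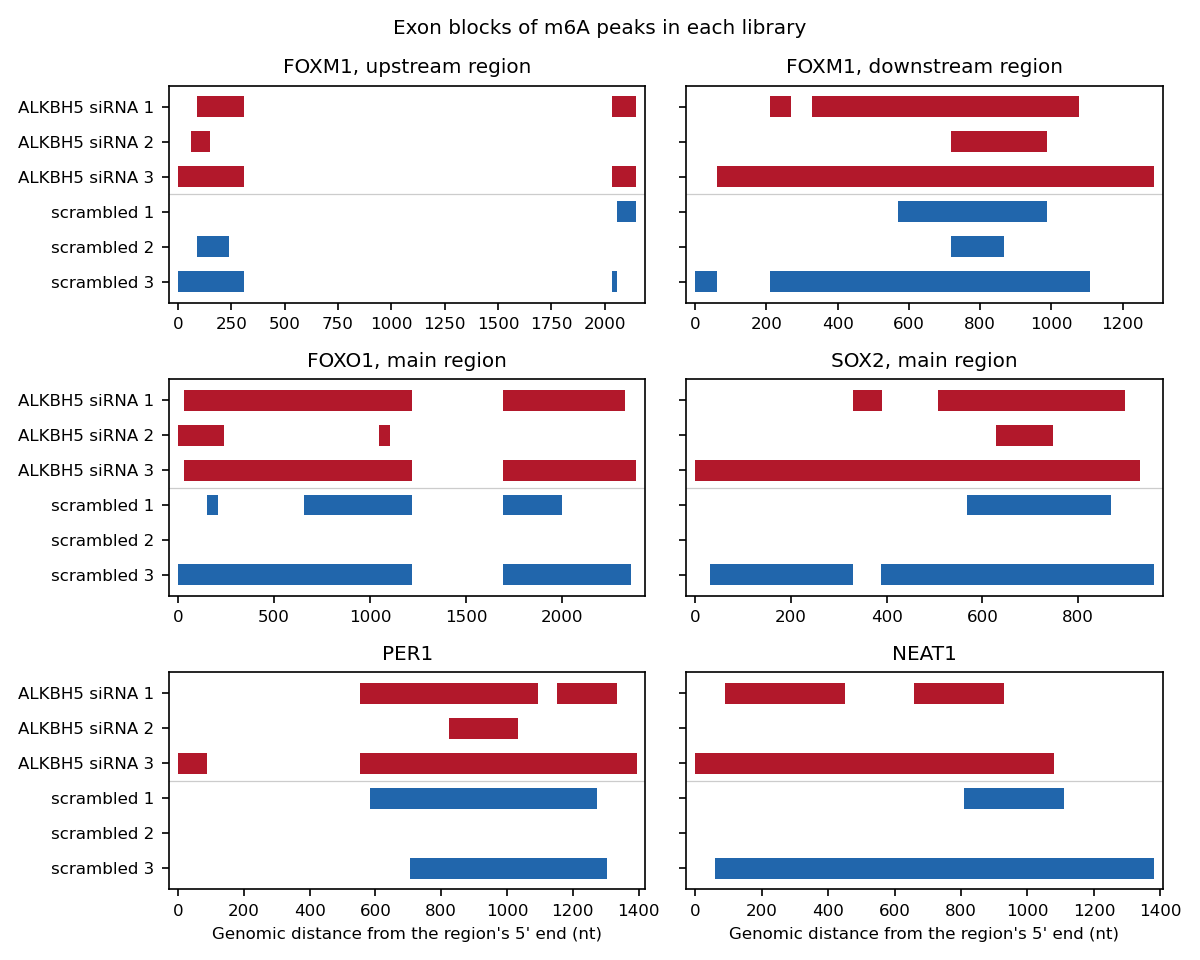
Exon blocks of the peaks of FOXM1, FOXO1, SOX2, PER1 and NEAT1 in each library (rows, ALKBH5 siRNA in red above scrambled siRNA in blue), along the genomic distance in nt from the 5' end of each region in the direction of transcription. Blocks of the knockdown and of scrambled overlie each other in most rows, and scrambled replicate 2 is empty for FOXO1, SOX2 and PER1.

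FOXO1, a forkhead factor restrained by insulin and AKT signalling, had the longest mean coverage of the 10 genes in both groups, although FOXM1 covered more in both libraries of replicate 2. Its peaks covered 1823, 300 and 2033 nt after knockdown and 929, 0 and 2034 nt in the scrambled libraries. Replicate 3 was thus equal to within 1 nt, and the differences of 894 and 300 nt came from replicates 1 and 2. The means were 1385 ± 946 nt in the knockdown and 987.7 ± 1018 nt in scrambled (SD, n = 3 each; exact permutation test, p = 0.7). The main region, chromosome 13, 41132478 to 41134864 on the minus strand, held 1913 nt of exon in 2 blocks and was called in 3 knockdown and 2 scrambled libraries. In replicate 1 all 929 nt of the scrambled library lay within the knockdown coverage. A second region of 210 nt downstream, 41130267 to 41130476, was called in replicate 3 of both siRNAs alone. The best FOXO1 peak stood at the 92.7, 34.7 and 95.2th percentile after knockdown and at 82.1 and 93.6 in scrambled replicates 1 and 3. In knockdown replicate 2 its 2 peaks were 240 and 60 nt, the smaller at percentile 0.828, close to the end of that list.

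SOX2, a factor of pluripotency and of neural and cancer stem cells, covered 541, 120 and 928 nt after knockdown. It covered 300, 0 and 869 nt in the scrambled libraries. The knockdown was longer in every pair, by 241, 120 and 59 nt, and the groups overlap. The means were 529.7 ± 404 nt in the knockdown and 389.7 ± 441 nt in scrambled (SD, n = 3 each; exact permutation test, p = 0.7; sign-flip test of the pairs, exact p = 0.25). The main region spanned chromosome 3, 181430519 to 181431476 (plus strand), in 1 block, and 120 nt of it, 181431147 to 181431266, were covered in all 5 libraries that called the gene. Those 120 nt were the whole peak of knockdown replicate 2, which ranked low, at percentile 8.29 of its list. In knockdown replicates 1 and 3 the best SOX2 peak stood at 84.2 and 93.1, and in scrambled replicates 1 and 3 at 88.1 and 86.2. A separate 90 nt peak upstream, 181429802 to 181429891, was called in knockdown replicate 1 alone, the library of the pair with the longer list.

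TFEB, which switches on lysosome and autophagy genes, had the fewest and among the weakest peaks. It covered 61, 0 and 120 nt after knockdown and 0, 0 and 150 nt in the scrambled libraries. The difference of means was 10.3 nt, with 60.3 ± 60.0 nt in the knockdown and 50 ± 86.6 nt in scrambled (SD, n = 3 each; exact permutation test, p = 1). Its 3 peaks stood at percentiles 2.30 and 21.7 in knockdown replicates 1 and 3 and at 12.5 in scrambled replicate 3. They fell in 2 regions of chromosome 6 on the minus strand: 41652045 to 41652194, called in knockdown replicate 1 and scrambled replicate 3, and 41651776 to 41651895, called in knockdown replicate 3. The 2 libraries of replicate 3 therefore both called TFEB but shared 0 nt.

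PER1, a repressor in the negative limb of the circadian clock, covered 721, 210 and 930 nt after knockdown. In the scrambled libraries it covered 690, 0 and 600 nt. It was longer in the knockdown of each pair, by 31, 210 and 330 nt, of which the first is about 1 step of peak length. The means were 620.3 ± 370 nt in the knockdown and 430.0 ± 375 nt in scrambled (SD, n = 3 each; exact permutation test, p = 0.5; sign-flip test of the pairs, exact p = 0.25). In replicate 1 its ratio of 1.04 was smaller than that of most genes, exceeding 19.6% of them, and in replicate 3 its ratio of 1.55 exceeded 89.5%. All PER1 peaks lay in 1 region, chromosome 17, 8043818 to 8045211 on the minus strand, with 930 nt of exon, and 210 nt of it, 8044178 to 8044387, were covered in all 5 libraries. The best PER1 peak stood at percentile 75.5, 65.3 and 86.2 after knockdown and at 58.0 and 71.8 in scrambled replicates 1 and 3. Unlike those of FOXO1 and SOX2, its peak in knockdown replicate 2 was in the better-scored part of the list.

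PKMYT1, a kinase that holds CDK1 inactive before mitosis, covered 120, 0 and 91 nt after knockdown and 61, 0 and 181 nt in the scrambled libraries. It was the one gene of the 8 with a shorter mean in the knockdown, 70.3 ± 62.6 nt against 80.7 ± 92.1 nt in scrambled (SD, n = 3 each; exact permutation test, p = 1). The knockdown was longer in replicate 1 by 59 nt and shorter in replicate 3 by 90 nt. In replicate 1 the 2 libraries called PKMYT1 in different regions and shared 0 nt: the knockdown peak spanned chromosome 16, 3024642 to 3025423 (minus strand, 120 nt of exon), and the scrambled peak in the region 3023283 to 3023885 downstream. Across that downstream region the opposite strand carried 3 peaks, in 3 libraries, with the number of the neighbouring gene PAQR4. The library kit named in the labels keeps strand, but whether peak calling used it is not given in the sources used here. The best peak stood at percentile 20.5 and 14.9 in knockdown replicates 1 and 3 and at 1.82 and 44.1 in scrambled replicates 1 and 3.

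The 2 long noncoding RNAs were called in the libraries of polyadenylated RNA and in neither library of total RNA, whose lists called 32.0% (knockdown) and 31.4% (scrambled) of all genes with a peak. NEAT1, the scaffold of nuclear paraspeckles, covered 631, 0 and 1080 nt after knockdown and 301, 0 and 1320 nt in the scrambled libraries. The knockdown was longer in replicate 1 by 330 nt and shorter in replicate 3 by 240 nt, with means of 570.3 ± 543 nt in the knockdown and 540.3 ± 692 nt in scrambled (SD, n = 3 each; exact permutation test, p = 1). All 5 NEAT1 peaks fell in 1 region, chromosome 11, 65191078 to 65192457 on the plus strand, and 121 nt of it, 65191887 to 65192007, were covered in all 4 libraries. No peak without a gene number lay within 20 kb of it on that strand. The best NEAT1 peak stood at percentile 53.8 and 68.9 in knockdown replicates 1 and 3 and at 42.9 and 85.1 in scrambled replicates 1 and 3. In both groups the replicate 3 library was the higher and the longer.

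PVT1, a noncoding RNA beside the MYC gene that is often amplified with it in tumours, covered 181, 0 and 390 nt after knockdown. It covered 61, 0 and 331 nt in the scrambled libraries. Both pairs with a call were longer in the knockdown, by 120 and 59 nt, and the means were 190.3 ± 195 nt in the knockdown and 130.7 ± 176 nt in scrambled (SD, n = 3 each; exact permutation test, p = 0.8). In replicates 1 and 3 every base of the scrambled peak was also covered in the knockdown. The ratio was 2.97 in replicate 1, above 88.3% of genes, and 1.18 in replicate 3, above 72.5%. The single region spanned chromosome 8, 128902867 to 128951765 on the plus strand. In replicate 3 of both siRNAs the peak had a second exon block of 12 nt beyond the gap. The best PVT1 peak stood at percentile 53.8 and 61.5 in knockdown replicates 1 and 3 and at 16.9 and 53.5 in scrambled replicates 1 and 3.

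**Figure D3:**
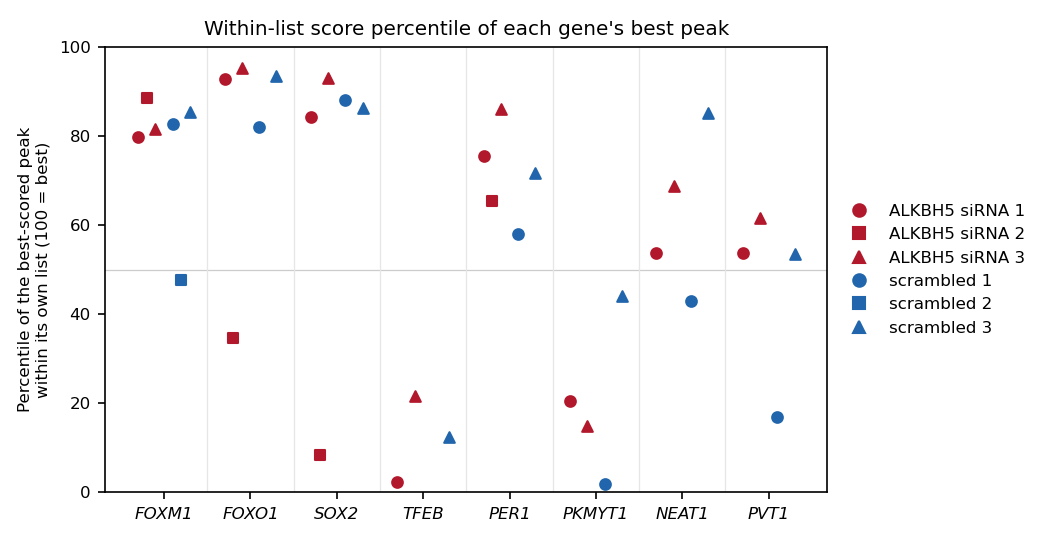
Percentile of the best-scored peak of each gene within its own list (y axis, 100 is the best), for each library that called the gene; colours give the siRNA, with ALKBH5 siRNA to the left of scrambled, and shapes the replicate number. FOXM1, FOXO1, SOX2 and PER1 stand above 50 in all libraries of replicates 1 and 3, and TFEB and PKMYT1 below it. Percentiles come from lists of different length, so a difference between libraries cannot be read as a change.

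WIF1, a secreted protein that binds and blocks Wnt ligands, and TRIM28, the corepressor that KRAB zinc finger proteins recruit to silence DNA, had no peak in any of the 6 lists. The nearest genes with a peak, by the order of genes in a RefSeq table, were these: LEMD3, which follows WIF1, was called in 6 libraries and TBC1D30, which precedes it, in 4, while ZBTB45, which precedes TRIM28, was called in 5 and UBE2M, which follows it, in 1. Between the peaks of those neighbours no list held a peak, with or without a gene number. RNA levels of WIF1 and TRIM28 were not measured here, so a lack of the mark cannot be told apart from a lack of RNA.

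As a group the 8 genes were longer in the knockdown more often than not, as were most genes with a peak. Mean covered length was higher in the knockdown for 7 of the 8, beside 65.3% of all genes with a peak. The median difference, knockdown minus scrambled, was 99.8 nt over the 8 and 40.0 nt over all genes, not scaled to the covered length of a gene. FOXM1, SOX2 and PER1, 3 of the 8, were longer in the knockdown of every pair, against 13% of all genes, and none was shorter in every pair, against 1.42%. A gene has to be called in all 3 knockdown libraries to be longer in every pair. Among the 3306 genes that were, 41.4% were longer in every pair, beside 3 of the 4 genes here, and among genes called in all 6 libraries the share was 34.1%. No difference of a single gene exceeded the spread between libraries (exact permutation test, p between 0.5 and 1 over the 8 genes). That test ignores the pairing, and its spread includes the differences of method between replicate numbers, so it cannot show that a difference is absent. In sign-flip tests of the pairs the exact p was 0.25 for FOXM1, SOX2 and PER1, the lowest that 3 pairs allow. It was 0.5 for FOXO1 and PVT1 and higher for TFEB, NEAT1 and PKMYT1. The mean number of peaks was higher in the knockdown for 5 of the 8 genes and equal for FOXM1, PVT1 and PKMYT1, with differences between 0 and 0.667 peaks.

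Summed over the 8 genes, peaks covered 5218, 991 and 7219 nt after knockdown and 2853, 301 and 6774 nt in the scrambled libraries. The largest of the 3 differences stood in replicate 1, where the whole knockdown list was longer, and how far list length contributes was not tested. In replicate 1 the 7 genes called in both libraries had ratios of 1.04 to 2.97, and 6 of the 7 lay above the median gene at 1.47. In replicate 3, where both lists covered the same length, the 8 ratios ran from 0.503 (PKMYT1) to 1.55 (PER1), with 4 above 1 and 4 below it. FOXM1, PER1, SOX2 and PVT1 were those above 1, and FOXO1, at 0.9995, was below it by less than 1 step of peak length.

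**Figure D4:**
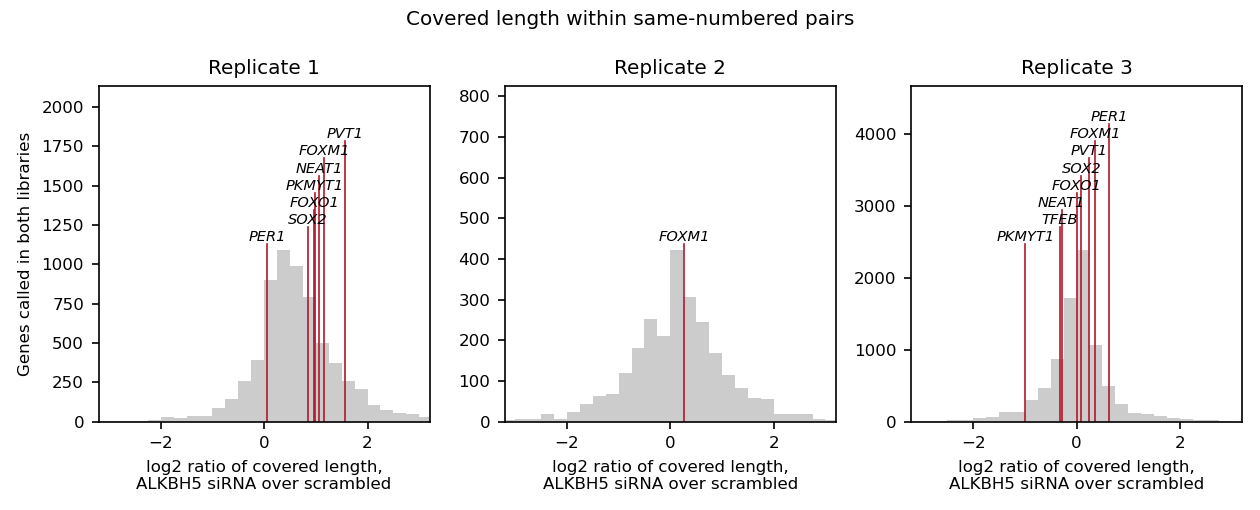
Distribution of the log2 ratio of covered length, ALKBH5 siRNA over scrambled, over all genes called in both libraries of a pair (grey bars, number of genes; values beyond 3.2 are outside the axes), with the listed genes as red lines. Most of the genes stand right of the peak of the distribution in replicate 1, on both sides of it in replicate 3, and FOXM1 alone has a ratio in replicate 2.

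Peaks of the 8 genes fell in 13 regions, of which 6 were called in more knockdown than scrambled libraries, 1 in fewer and 6 in equally many. Over all regions 32.6% were called in more knockdown libraries and 23.1% in fewer. The region called in fewer was the downstream region of PKMYT1, in 1 knockdown and 2 scrambled libraries. Regions called in 1 library alone were the upstream regions of SOX2 and PKMYT1 and the downstream one of TFEB, each in a knockdown library, 3 of 13 against 28.9% of all regions. None of the 13 was called by every knockdown list and by no scrambled list, as were 0.129% of regions. None of the 13 regions held a peak of another gene number on the same strand. In FOXM1, FOXO1, SOX2, PER1, NEAT1 and PVT1 a stretch of 60 to 210 nt was covered in every library that called the gene, while for TFEB and PKMYT1 no base was covered in every such library.

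Genes that work with the listed ones were read in 10 companion lists of 104 genes. Of these, 64 had a peak: 16 were called in more knockdown libraries, 5 in fewer and 43 in equally many, where the whole table gives 26.1% in more and 17.1% in fewer. In the list of TFEB, 6 of 14 MiT/TFE and lysosome genes had a peak, 3 in more knockdown libraries and 0 in fewer. TFE3, a relative of TFEB, covered 240, 90 and 389 nt after knockdown and 0, 0 and 61 nt in the scrambled libraries. SQSTM1, the autophagy receptor p62, covered 240, 0 and 600 nt in the knockdown and 0, 0 and 150 nt in scrambled. TFE3 was thus called in libraries of all 3 methods after knockdown, unlike TFEB itself. The other 3 genes with a peak in that list were called in equally many libraries. Here and in the other lists most named genes were picked by the largest difference in libraries called, so they do not stand for their list.

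Of 12 clock genes 11 had a peak, 3 in more knockdown libraries and 1 in fewer. Over all genes with a peak, 26.1% were called in more knockdown libraries and 17.1% in fewer. PER2, the partner of PER1, covered 270, 242 and 780 nt after knockdown and 0, 0 and 782 nt in scrambled. CLOCK, of the activating limb, covered 480, 0 and 511 nt in the knockdown and 0, 0 and 541 nt in scrambled. For both, replicate 3 was equal to within about 1 step. PER2 lacked a call in scrambled replicates 1 and 2, and CLOCK in scrambled replicate 1 and in both libraries of replicate 2. Of the paraspeckle proteins, which NEAT1 holds together, 4 of 8 had a peak. Of these 4, 3 were called in more knockdown libraries, beside the same 26.1% of all genes. RBM14 covered 479, 150 and 869 nt in the knockdown and 212, 0 and 449 nt in scrambled, and TARDBP 240, 0 and 569 nt in the knockdown and 0, 0 and 450 nt in scrambled.

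Secreted Wnt antagonists other than WIF1 had few peaks, 3 of 9 genes. SFRP1 covered 90, 211 and 121 nt after knockdown and 0, 0 and 181 nt in scrambled, and DKK1 ran the other way in number of calls, with 0, 0 and 149 nt in the knockdown and 60, 0 and 415 nt in scrambled. Among partners of TRIM28 in silencing, 9 of 12 had a peak, 2 in more knockdown libraries and 1 in fewer. The shares over all genes with a peak were 26.1% in more and 17.1% in fewer. CBX5, the heterochromatin protein HP1 alpha, covered 181, 0 and 61 nt in the knockdown and was not called in any scrambled library. CHD3, a chromatin remodeller, covered 844, 242 and 301 nt in the knockdown and 513, 91 and 0 nt in scrambled. Silencing partners thus carried peaks although TRIM28 did not.

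Of the mitotic genes that FOXM1 activates 5 of 10 had a peak, each in as many knockdown as scrambled libraries, although not always in the same pair: CDC25B, named after its values were seen, covered 180, 0 and 0 nt after knockdown and 0, 0 and 91 nt in scrambled. CENPF, a kinetochore protein, covered 3932, 1202 and 4260 nt after knockdown and 3303, 1505 and 6599 nt in scrambled, and BIRC5, the survivin gene, 179, 0 and 299 nt in the knockdown and 120, 0 and 447 nt in scrambled. CCNB1, PLK1 and AURKB, which drive mitosis, had no peak in any list. Around PKMYT1, 7 of 10 genes had a peak, 2 in more knockdown libraries and 0 in fewer. The shares over all genes with a peak were 26.1% in more, 17.1% in fewer and 56.8% in equally many. CDK2, a cyclin-dependent kinase, covered 120, 0 and 61 nt in the knockdown and 0, 0 and 61 nt in scrambled, and GTSE1, a microtubule protein of mitosis, 270, 0 and 508 nt in the knockdown and 0, 0 and 509 nt in scrambled.

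Of 10 SOX and pluripotency genes 7 had a peak: 6 of the 7 were called in all 6 libraries, and 1 of the 7, SOX5, in scrambled replicate 3 alone (300 nt). Over all genes with a peak, 23.3% were called in all 6 libraries, 26.1% in more knockdown libraries and 17.1% in fewer. KLF4 covered 1374, 360 and 1906 nt after knockdown and 479, 150 and 2025 nt in scrambled. SOX11, and POU5F1 and NANOG, the other core factors of pluripotency beside SOX2, had no peak. Of the FOXO factors and their targets 8 of 11 had a peak, 0 in more and 1 in fewer knockdown libraries. IRS2, an insulin receptor substrate, covered 1171, 210 and 2190 nt in the knockdown and 604, 331 and 2069 nt in scrambled, and SESN1 was called in scrambled replicate 3 alone, with 418 nt. Of 8 further long noncoding RNAs 4 had a peak, 1 in more knockdown libraries. KCNQ1OT1 covered 151, 0 and 424 nt in the knockdown and 546, 0 and 3614 nt in scrambled, and HOTAIR 151, 0 and 121 nt in the knockdown and 0, 0 and 302 nt in scrambled.

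**Figure D5:**
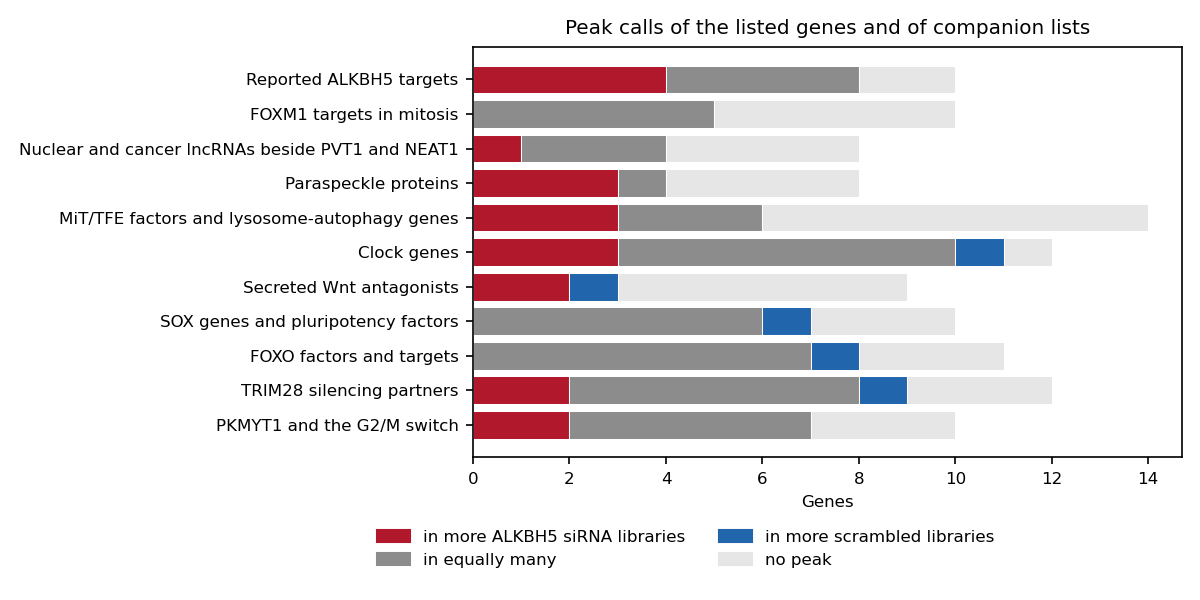
Number of genes (x axis) called in more ALKBH5 siRNA libraries, in equally many, in more scrambled libraries or without a peak, for the reported ALKBH5 targets (top) and the 10 companion lists. In the lists of FOXM1, SOX and FOXO genes none was called in more knockdown libraries, and in the MiT/TFE, paraspeckle and clock lists 3 each were, with 1 clock gene in more scrambled libraries. Over all genes with a peak the shares were 26.1% in more knockdown and 17.1% in more scrambled libraries.

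For each of the 8 genes the other gene with the most similar coverage was found by the Euclidean distance of log2(covered length + 1) over the 6 libraries. CENPO, a kinetochore gene, was nearest to FOXM1, at a distance of 0.235. The median gene lay at 12.3, but a nearest gene is picked for the smallest distance and lies below the median by construction. CA12 was nearest to FOXO1 (0.189), APEX2 to SOX2 (0.297), ARL9 to TFEB (0.0235), PAMR1 to PER1 (0.402), CUZD1 to PKMYT1 (0.388), GRM8 to NEAT1 (0.139) and SH3BP5 to PVT1 (0.246). CENPO covered 1286, 330 and 1555 nt after knockdown and 512, 302 and 1256 nt in scrambled, close to FOXM1 in every library. These matches describe coverage only.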

How the data were processed

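Peak lists of the 6 pulldown libraries were analysed. Per the submitters' processing notes, the tools were CASAVA 1.8.2, TopHat2 and SAMtools and the build was hg19. The peak caller, its threshold and any use of input were not given in the sources used here. The authors deposited a score per peak whose values, none above 0.011, are those of a p-value, and it was used only to rank peaks within a list. Lists were made per library. Depth is unknown, so no interval could be given.

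Genes were matched by number through a RefSeq table of GRCh38.p14, used for names and gene order only (10500 of 10536 numbers matched, and all 10 listed genes). Covered length was summed over exon blocks, and list totals counted each base once. Peaks of all lists joined into 21675 regions where blocks overlapped by at least 1 bp on a strand. Printed coordinates are hg19, counted from 1. Python 3.11.15 and pandas 2.3.3 were used. Counting was checked on simulated lists with known changes. Joining was checked against a direct comparison of all pairs of listed peaks on a single chromosome.

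Per gene, the means of knockdown and scrambled were set against each other in a two-sided exact permutation test, without pairing, at a threshold of 0.05. The replicate numbers pair the libraries, since the protocol text ties each number to a method. Deviations of same-numbered libraries correlated across regions (0.24, 0.31 and 0.29). The genes, companion lists and tests were chosen with earlier results of these data known. Named besides the 10 genes were ALKBH5, up to 2 genes per companion list by largest difference in libraries called, then in mean length, and the nearest gene in coverage. Markers, neighbours, PAQR4, CDC25B and the genes named as lacking a peak fall outside that rule and were chosen after their values were seen, except the markers as a list. No sequence is printed, since no genome of the lists' build was used here.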

Additional observations from a re-analysis of the deposited data

How the results depend on the processing

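The threshold of 0.05 was out of reach for the exact tests of single genes, with a smallest possible p of 0.1 for 3 against 3 libraries and 0.25 for 3 pairs, so the p-values say nothing of stability. With the replicate block the FOXM1 difference of 349.0 nt is the same by construction, and its exact sign-flip p was 0.25. Of the 128 length results under other settings, 102 kept their direction, 21 reversed and 5 became 0. The 102 include every gene under the replicate block, peaks taken by position and merged peaks, where no length difference changed at all. Peak numbers were less stable: of 120 results, 81 kept their direction or stayed at 0, 35 went to or from 0 and 4 reversed. With all lists at the size of the shortest, NEAT1 reversed to -440 nt and -0.333 peaks and was the 1 gene called in fewer knockdown libraries. With the longer list of each pair at the size of the shorter, TFEB reversed to -10 nt. In both of these settings TFEB was no longer called in more knockdown libraries, which left 3 genes (FOXO1, SOX2 and PER1) in place of 4. As a share of the list's own covered length (in parts per 1000000), a scale chosen after seeing the data, NEAT1 reversed to -0.996. Leaving out 1 library or 1 replicate number, length differences ran from 50.2 to 693.2 nt for FOXM1, -96.2 to 940.3 for FOXO1, -59.2 to 379.7 for SOX2, -19.5 to 60.3 for TFEB, -24.7 to 395.5 for PER1, -50.7 to 39.8 for PKMYT1, -240.2 to 419.8 for NEAT1 and -40.2 to 159.8 for PVT1. Differences in peaks ran from -0.5 to 1 for FOXO1 and -0.167 to 0.833 for NEAT1. Genes called in more knockdown libraries then numbered 1 to 7 and in fewer 0 to 3, as shares of the libraries left. Without scrambled replicate 2 the counts were 1 (TFEB) and 3, so the 4 genes reported rest on that library for FOXO1, SOX2 and PER1. Without knockdown replicate 2, scrambled replicate 1 or scrambled replicate 3 it was 7 in more, and without knockdown replicate 1 or 3 it was 3 in fewer, where unequal numbers of libraries decide for genes called in equally many. The best-scored 50% of each list also gave 4 genes in more knockdown libraries, but 1 of them, PER1, was shared with the 4 reported, and left 7 regions with 0 called in fewer. With an overlap of at least 50% of the shorter peak, 2 regions were called in fewer. Peaks taken by position and merging of overlapping peaks left the 4 and 0 genes as they were, and blocks extended by 100 bp gave 12 regions with 6 in more and 1 in fewer. The cause of these changes was not tested.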
